A study of Arabidopsis thaliana with 21 samples.

Results

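FLOWERING LOCUS C (FLC) and MADS AFFECTING FLOWERING 1 to 5 (MAF1 to MAF5) are the 6 genes of Arabidopsis thaliana that encode the FLC clade of MADS-box transcription factors. They were taken by locus identifier from the deposited TAIR10 gene annotation and are 6 of its 33602 loci and of its 27206 nuclear protein-coding genes. The series holds 21 RNA libraries of the accession Col-0, 3 in each of 7 groups. Leaf, herbaceous stem and cambium stem came from wild type and also from soc1-ful, a mutant of the flowering promoters SOC1 and FUL in the same accession, and wood stem came from soc1-ful. All plants grew under 16 h of light a day at 20 °C, and poly(A) RNA went into strand-specific libraries. The sources used here name neither the mutant alleles nor the age of the plants. The deposited annotation holds no value for any library, so expression, depth and group differences are not analysed here, and the data below are gene models and the genome sequence under them.

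FLC represses flowering by binding, with its MADS-box partner SVP, to the genes of the floral promoters FT and SOC1. Prolonged cold (vernalization) silences FLC through Polycomb chromatin marks that start inside its first intron, and the autonomous pathway keeps FLC low without cold. MAF1, also called FLM, represses flowering at cool ambient temperature, MAF2 guards against a response to short cold spells, and MAF3 and MAF4 act as further repressors. MAF5 also belongs to this group of flowering regulators, and its transcript is known to rise in the cold. Proteins of this type have a DNA-binding MADS domain, encoded mainly by exon 1, followed by the intervening, keratin-like and C-terminal regions. The keratin-like region takes part in the binding of such proteins to each other.

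Every one of the 6 genes had an isoform with 7 coding exons, and the lengths of coding exons 2 to 5 were the same in all of them, at 58, 62, 100 and 42 bp. FLC (AT5G10140), MAF1 (AT1G77080), MAF2 (AT5G65050) and MAF3 (AT5G65060) shared all 7 lengths, 185, 58, 62, 100, 42, 42 and 102 bp, which give a protein of 196 residues. MAF4 (AT5G65070) had an exon 6 of 51 bp and a coding exon 7 of 105 bp, for 200 residues. MAF5 (AT5G65080) had a coding exon 1 of 206 bp, with 21 bases added before the position where the others start, and a coding exon 7 of 108 bp, for 205 residues. These 7-exon isoforms were numbers 1 in FLC, MAF3, MAF4 and MAF5, 4 in MAF1 and 3 in MAF2, and isoforms are called by such numbers below. Each was the first listed isoform with 7 coding exons and an exon 2 of 58 bp, so that length was the same by construction.

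Exon 2 is shown because its length was not that of coding exon 2 in the first listed isoforms of the other MADS-box genes listed here. Capitals mark where a base differs from FLC. Positions here and below are TAIR10 positions, with the sequence of the RefSeq assembly TAIR10.1, and sequences read 5′ to 3′ along the gene.
FLC exon 2 (chr5:3175604-3175661, − strand): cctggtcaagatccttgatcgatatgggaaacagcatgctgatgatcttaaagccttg
MAF1 exon 2 (chr1:28958334-28958391, + strand): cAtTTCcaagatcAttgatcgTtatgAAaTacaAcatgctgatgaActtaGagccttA
MAF2 exon 2 (chr5:25984681-25984738, + strand): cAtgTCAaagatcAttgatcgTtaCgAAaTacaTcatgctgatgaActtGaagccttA
MAF3 exon 2 (chr5:25989671-25989728, + strand): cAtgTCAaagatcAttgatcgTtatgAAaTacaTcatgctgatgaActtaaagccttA
MAF4 exon 2 (chr5:25994433-25994490, + strand): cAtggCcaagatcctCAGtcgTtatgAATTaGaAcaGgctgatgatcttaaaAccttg
MAF5 exon 2 (chr5:26000267-26000324, + strand): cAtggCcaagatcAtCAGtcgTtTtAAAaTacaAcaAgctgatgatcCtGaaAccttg
MAF2 and MAF3 differed from FLC at many of the same places, and MAF4 and MAF5 shared changes of their own, such as the capitals CAG near the start. Of the 58 bases, 32 (55.2%) were the same in all 6 genes.

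The run of coding exons 62, 100, 42 and 42 bp occurred in 19 of 27206 coding genes (0.0698%), and 5 of these were FLC, MAF1, MAF2, MAF3 and MAF5. The other 14 were all in a list of 33 other MADS-box genes. MAF4 lacked the run through its longer exon 6. The run 58, 62, 100 and 42 bp, which begins with exon 2, occurred in 6 coding genes, and these were FLC and MAF1 to MAF5. That run was taken from the exon lengths of these genes, so only its absence from other coding genes is informative. None of the 33 other MADS-box genes had a coding exon 2 of 58 bp in its first listed isoform. On this measure MAF1 lacked it too, since exon 2 of its first listed isoform had 46 bp. The shorter run of 58 and 62 bp occurred in 10 coding genes, of which 6 were FLC and MAF1 to MAF5.

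Exon 1 encodes most of the MADS domain and is shown over the 185 coding bases that all 6 genes share, again with capitals where a base differs from FLC.
FLC exon 1 (chr5:3179155-3179339, − strand): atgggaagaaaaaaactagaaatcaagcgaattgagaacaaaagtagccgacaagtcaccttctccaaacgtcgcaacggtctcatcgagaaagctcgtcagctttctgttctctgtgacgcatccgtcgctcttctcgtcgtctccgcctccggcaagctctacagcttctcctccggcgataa
MAF1 exon 1 (chr1:28955679-28955863, + strand): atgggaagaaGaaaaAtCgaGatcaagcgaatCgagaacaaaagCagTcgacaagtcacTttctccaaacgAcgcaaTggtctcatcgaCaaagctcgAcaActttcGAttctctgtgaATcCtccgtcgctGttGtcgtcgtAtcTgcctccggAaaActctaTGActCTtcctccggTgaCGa
MAF2 exon 1 (chr5:25982415-25982599, + strand): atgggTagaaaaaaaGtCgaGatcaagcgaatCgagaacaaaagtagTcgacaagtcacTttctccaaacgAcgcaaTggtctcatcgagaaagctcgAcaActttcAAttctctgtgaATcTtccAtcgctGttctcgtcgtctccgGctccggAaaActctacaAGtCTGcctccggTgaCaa
MAF3 exon 1 (chr5:25987527-25987711, + strand): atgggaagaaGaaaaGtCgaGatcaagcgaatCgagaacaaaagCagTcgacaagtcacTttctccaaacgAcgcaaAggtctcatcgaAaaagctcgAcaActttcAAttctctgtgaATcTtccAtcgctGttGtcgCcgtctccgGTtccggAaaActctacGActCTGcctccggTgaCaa
MAF4 exon 1 (chr5:25992310-25992494, + strand): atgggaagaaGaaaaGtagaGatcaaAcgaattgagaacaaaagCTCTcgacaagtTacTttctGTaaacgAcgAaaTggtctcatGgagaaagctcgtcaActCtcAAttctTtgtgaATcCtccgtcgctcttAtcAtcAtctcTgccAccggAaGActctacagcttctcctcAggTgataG
MAF5 exon 1 (chr5:25997671-25997855, + strand): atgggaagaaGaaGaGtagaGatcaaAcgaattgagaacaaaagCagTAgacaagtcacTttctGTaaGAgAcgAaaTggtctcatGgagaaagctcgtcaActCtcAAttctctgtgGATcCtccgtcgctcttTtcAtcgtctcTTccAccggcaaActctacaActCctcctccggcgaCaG
The differences were spread along the exon and were fewest in MAF2, with 28, and most in MAF4 and MAF5, with 35 each. In all, 124 of the 185 bases and 40 of the 61 encoded residues were the same in the 6 genes. FLC and MAF2 differed in 24 of 61 codons, and in 14 of these the residue was nevertheless the same. MAF2 and MAF3 differed in 9 codons, of which 4 kept the residue.

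Conservation differed between exons. The median identity of bases over the 15 pairs of genes was 82.7% in exon 1, with a range of 81.1% to 94.6%, 82.3% in exon 3, with a range of 59.7% to 95.2%, and 73.8% in exon 5, with a range of 61.9% to 85.7%. In exon 3 the 5 pairs with FLC gave 59.7% to 66.1%, and 46.8% of its bases were the same in all 6 genes. Exon 7 gave 69.6% over the 6 pairs of equal length. At the protein level, residues were counted from the start that all 6 genes share, which in MAF5 follows its 21 added bases. The first 61 residues had a median identity of 80.3% and the others 60.7%, and whole proteins 66.3%. The lowest value over whole proteins was 55.1% for FLC with MAF5 and the highest 87.8% for MAF2 with MAF3. MAF1 stood nearer to MAF3, at 78.6%, than MAF4 did to MAF5, at 74.1%. FLC was the most distant from every other member outside the MADS domain, with 45.2% to 57.0% of the later residues in common. Within the first 61 residues it shared 77.0% to 83.6% with them. The members are related by descent, so these pairs are not independent of each other.

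**Figure D1:**
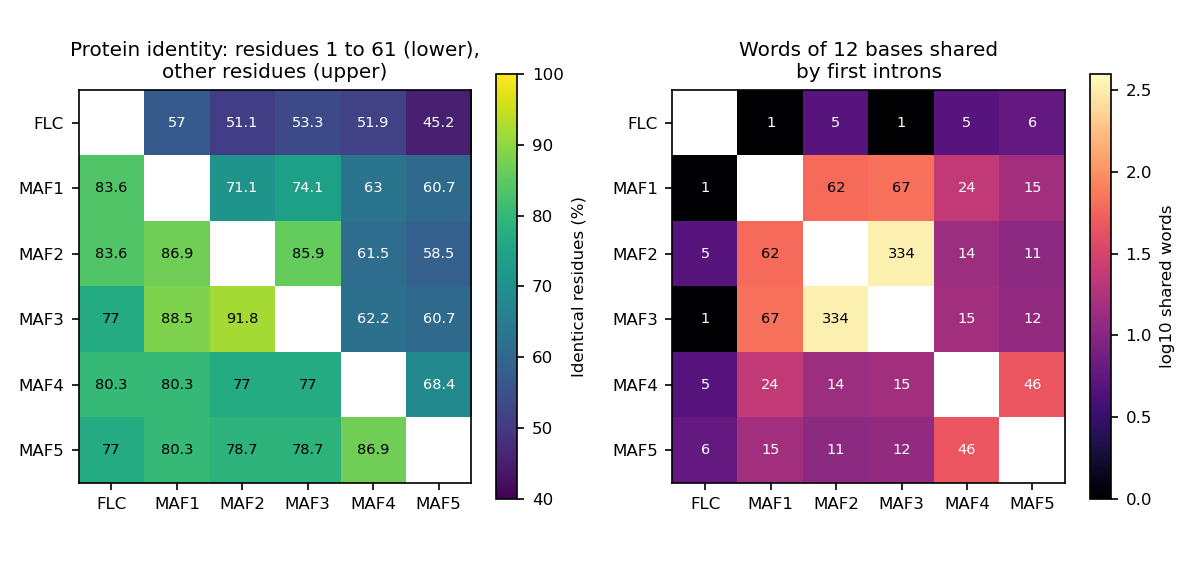
Left, percent of identical residues between the 7-exon proteins for each pair of genes, with residues 1 to 61 below the diagonal and all other residues above it; right, number of distinct words of 12 bases shared by the first introns of each pair, coloured on a log10 scale. MAF2 and MAF3 form the brightest cells in both panels (91.8%, 85.9% and 334 words), and the FLC row is the darkest in the upper triangle and in the right panel.

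Most introns differed more in length between the genes than the exons did, intron 3 excepted. Intron 1 measured 3493 bp in FLC, 2470 bp in MAF1, 2081 bp in MAF2, 1959 bp in MAF3, 1938 bp in MAF4 and 2411 bp in MAF5. FLC had the longest and the MAF2, MAF3 and MAF4 introns lay close together. Intron 2 measured 178 bp in FLC, 210 bp in MAF1, 202 bp in MAF2 and 213 bp in MAF3, against 556 bp in MAF4 and 541 bp in MAF5. The MAF4 and MAF5 introns were thus the longer pair at this position. Intron 3 was the most even, at 80 to 94 bp. Intron 6 was the least even, and the highest value, 992 bp in FLC, was 9.10 times the lowest, 109 bp in MAF4. Introns took up between 75.8% (MAF3) and 84.4% (FLC) of the span of the gene. All 51 distinct introns of the 6 genes began with GT and ended with AG, as did 98.8% of introns of coding genes.

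**Figure D2:**
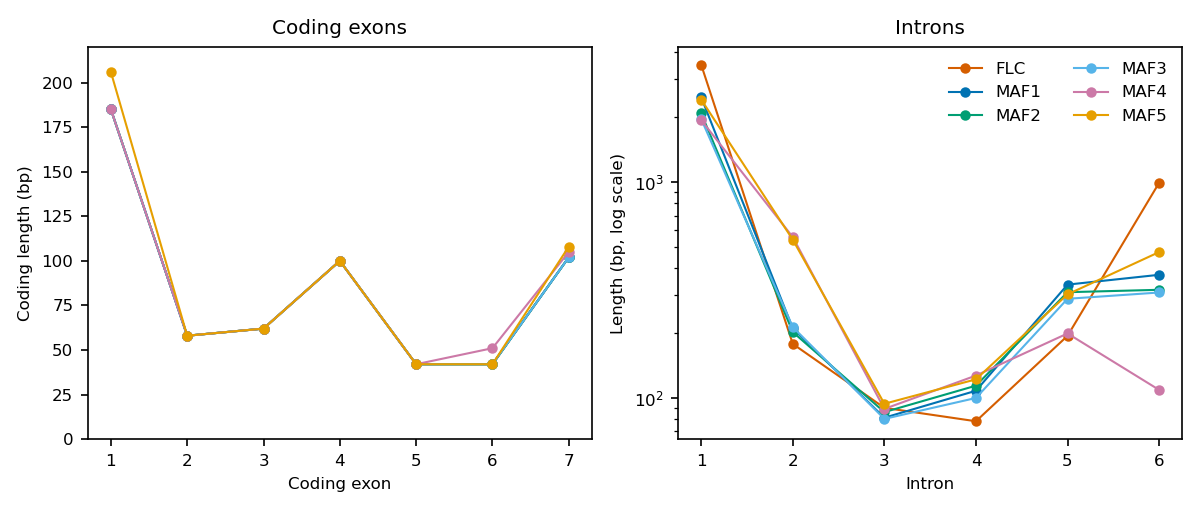
Coding length of exons 1 to 7 (left, bp, linear axis) and length of introns 1 to 6 (right, bp, log axis) in the 7-exon isoform of each gene, 1 line per gene. The exon lines coincide at exons 2 to 5, while intron 1 runs from 1938 to 3493 bp and intron 6 from 109 to 992 bp.

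The first intron was the longest intron in all 6 genes. It was also the longest in 42.9% of coding genes with at least 2 introns (7334 of 17097), so its place in the gene was common and its length was not. In the first listed isoform all 6 first introns were over 1000 bp, as were 380 of 21248 coding genes with an intron (1.79%). Ranked by length among these genes, FLC stood at 10, MAF1 (2592 bp in its first listed isoform, number 2) at 25, MAF5 at 28, MAF2 at 41, MAF3 at 45 and MAF4 at 50. The median was 2246 bp over the 6 genes and 156 bp over the 21248 coding genes with an intron. It took up 58.7% of the FLC gene and 48.6% of the MAF5 gene, with the other genes between these values. Its GC content was 30.3% to 32.2%.

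The comparison with other MADS-box genes depended on which intron is counted as the first. By the first intron of the transcript, the 33 other MADS-box genes had a median of 621 bp and a range of 91 to 1793 bp, with AGL19, a promoter of flowering, at the upper end, and 8 of them passed 1000 bp. The lowest value in the FLC clade, 1938 bp in MAF4, was above that upper end. By the first intron inside the coding sequence, which in the 6 genes is intron 1 but in some others follows an intron ahead of the coding sequence, the 33 genes had a median of 988 bp and a range of 97 to 2999 bp, and 15 passed 1000 bp. On this count 4 of them were at least as long as MAF4, the floral organ identity gene AG at 2999 bp, ANR1 at 2134 bp, SHP2 at 2056 bp and AGL14 at 1940 bp. All 6 FLC clade genes passed 1000 bp on this count too, as did 342 of 20549 coding genes with such an intron (1.66%). A long intron at this place was therefore shared with part of the family. In 20 of the 33 the longest intron was intron 1 and in 11 it was intron 2. In 18 genes of the vernalization and autonomous pathways and FLC targets the median was 374 bp, and 2 passed 1000 bp, the RNA-binding regulator FPA at 1371 bp and the vernalization gene VRN1 at 1181 bp.

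**Figure D3:**
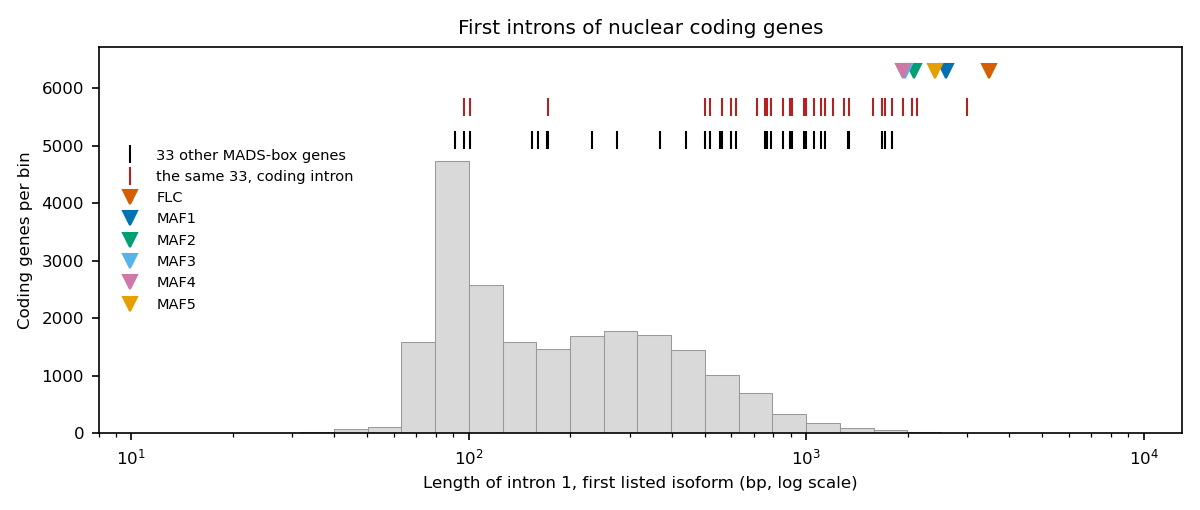
Number of nuclear coding genes by length of intron 1 in the first listed isoform (grey bars, log axis in bp), with 33 other MADS-box genes as black ticks, their first introns inside the coding sequence as red ticks and the 6 FLC clade genes as coloured triangles; the height of ticks and triangles has no meaning. The triangles lie between 1938 and 3493 bp, to the right of the highest black tick at 1793 bp, while 4 red ticks, up to 2999 bp, lie among them.

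The RY element, TGCATG or its reverse complement CATGCA, is known as a binding sequence of the B3 repressors VAL1 and VAL2, and in FLC such elements lie in the stretch of intron 1 where silencing starts. All 6 first introns held an RY element in their first 1000 bases, against 145 of 380 first introns over 1000 bp (38.2%). The first one began at base 289 of the intron in FLC, 314 in MAF1, 292 in MAF2, 293 in MAF3, 303 in MAF4 and 236 in MAF5. A window from base 201 to base 350 of the intron was set after these positions were seen, so it held all 6 by construction. It held the start of an RY element in 29 of the 380 introns (7.63%), which include the 6. The stretches around these elements are shown with the element in capitals, and how alike they are was not scored.
FLC intron 1 (chr5:3178798-3178896, − strand): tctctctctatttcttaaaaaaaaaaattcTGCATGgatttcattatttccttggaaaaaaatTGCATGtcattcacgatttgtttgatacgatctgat
MAF1 intron 1 (chr1:28956157-28956202, + strand): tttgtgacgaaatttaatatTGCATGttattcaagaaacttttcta
MAF2 intron 1 (chr5:25982871-25982916, + strand): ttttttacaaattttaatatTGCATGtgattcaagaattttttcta
MAF3 intron 1 (chr5:25987984-25988029, + strand): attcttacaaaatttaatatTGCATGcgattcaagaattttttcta
MAF4 intron 1 (chr5:25992777-25992822, + strand): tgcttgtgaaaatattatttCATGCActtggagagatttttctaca
MAF5 intron 1 (chr5:25998071-25998118, + strand): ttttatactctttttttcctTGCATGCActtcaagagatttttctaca
FLC had a second element at base 322, 27 bp after the end of the first. MAF4 had the element in the reverse direction, and in MAF5 elements in both directions overlapped. Counts in the first 1000 bases were 2 in FLC, 5 in MAF5 and 1 in each of the other 4, and at least 2 were found in 53 of the 380 introns (13.9%). Several MAF5 elements overlapped each other, and its whole intron held 8. The strict CArG box, CC followed by 6 A or T and GG, which MADS-domain proteins are known to bind, was found in the first 1000 bases of none of the 6 introns and of 30 of the 380 (7.89%). A match of letters is not a measured binding site.

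Over the whole of intron 1, the number of words shared differed widely between pairs. MAF2 and MAF3 shared 334 distinct words of 12 bases, 16.1% of the words of MAF2 and 17.2% of those of MAF3, and their longest common run was 39 bases. MAF1 shared 67 words with MAF3 and 62 with MAF2, and MAF4 shared 46 with MAF5. MAF1 shared 24 words with MAF4 and 15 with MAF5, MAF2 shared 14 and 11 with them, and MAF3 15 and 12. Against 112 other genes with a first intron over 1500 bp, the median was 3 words and the highest 15 for MAF1. These values were 2 and 14 for MAF2 and for MAF5, 2 and 11 for MAF3, and 1 and 11 for MAF4. Most MAF pairs were thus above or at the upper end of these ranges, but MAF5 shared fewer than 14 words with MAF2 and with MAF3. FLC shared 1 to 6 words with each of the others. For FLC against the same 112 genes the median was 3 words and the highest 14, so its values with the MAF genes were within that range.

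The 6 genes had 18 annotated isoforms, 4 each for FLC and MAF1, 3 each for MAF2 and MAF4, and 2 each for MAF3 and MAF5. All 6 thus had at least 2, as did 5804 of 27206 coding genes (21.3%) and 16 of the 33 other MADS-box genes. AGL42 had the most of those, with 5, and FCA and FPA had 4 each among the pathway genes, 6 of 18 of which had at least 2. Cut from the genome, all 18 coding sequences ran from a start codon to a single stop codon.

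**Figure D4:**
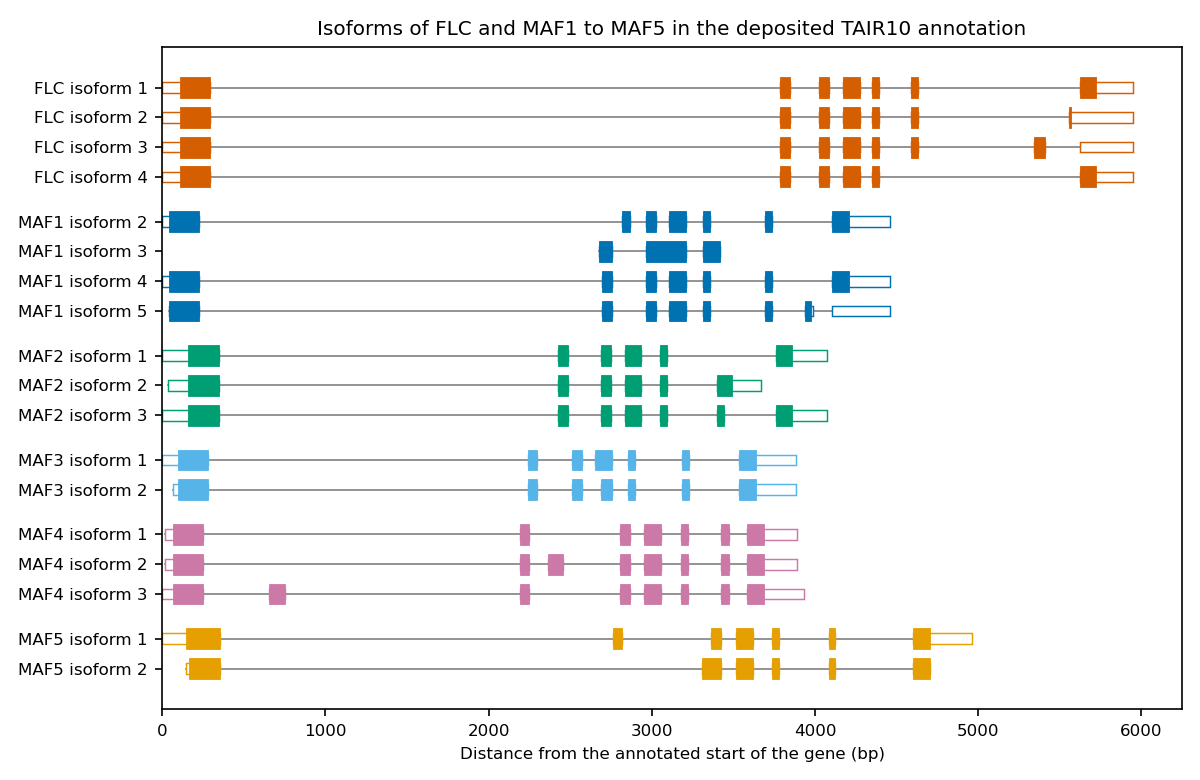
All 18 annotated isoforms drawn to scale from the annotated start of each gene (bp), with coding sequence as tall filled boxes, untranslated parts of exons as low open boxes and introns as lines. The large gap after exon 1 is intron 1 (3493 bp in FLC, 1938 bp in MAF4), and most differences between isoforms lie in exons 2 to 7.

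The isoforms differed in skipped exons, added exons and shifted exon ends. In FLC, whose isoform 1 is the 7-exon form, isoform 4 skipped exon 6 and encoded 182 residues, isoform 2 began the last exon 66 bases further upstream, of which 15 were coding, and encoded 167, and isoform 3 had a further exon of 72 bp before the last and encoded 186. The stop codon of isoform 3 lay at the end of that exon, with 0 bases between it and the last junction. MAF2 also had a form without exon 6, isoform 1, with 182 residues. MAF2 isoform 2 instead ran on from exon 6 in an exon of 272 bp that ended the transcript, and encoded 178 residues. The skipped exon 6 is shown in the genes where it has 42 bp, with capitals where a base differs from FLC, and in MAF4, without capitals, where it has 51 bp.
FLC exon 6 (chr5:3174818-3174859, − strand): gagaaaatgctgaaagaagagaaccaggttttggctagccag
MAF1 exon 6 (chr1:28959330-28959371, + strand): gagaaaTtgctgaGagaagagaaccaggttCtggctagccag
MAF2 exon 6 (chr5:25985654-25985695, + strand): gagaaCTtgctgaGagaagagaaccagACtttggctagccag
MAF3 exon 6 (chr5:25990614-25990655, + strand): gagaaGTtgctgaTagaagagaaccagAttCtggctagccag
MAF4 exon 6 (chr5:25995666-25995716, + strand): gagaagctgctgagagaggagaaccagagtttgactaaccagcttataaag
MAF5 exon 6 (chr5:26001588-26001629, + strand): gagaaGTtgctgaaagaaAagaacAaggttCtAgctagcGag
FLC and MAF1 differed at 3 of its 42 bases, and FLC and MAF5 at 7. Its median identity, 88.1% over the 10 pairs with equal length, was the highest of the 7 exons, and the MAF4 form ran on past the end of the others. The medians ranked were over unlike sets of pairs, since those of exons 1 to 5 were over 15 pairs with MAF4 included and that of exon 7 over 6.

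MAF1 had a pair of exons that replaced each other. Isoform 4 contained the exon of 58 bp and isoform 2 an exon of 46 bp that began 64 bp after it, and no isoform held both. These are the forms known as FLM-β and FLM-δ. Isoform 2 encoded 192 residues and isoform 4 encoded 196. The exon of 46 bp is shown for comparison with the MAF1 exon 2 above.
MAF1 exon of 46 bp (chr1:28958456-28958501, + strand): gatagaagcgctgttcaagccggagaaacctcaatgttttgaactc
It was the same as the last 46 bases of the MAF1 exon of 58 bp at 28.3% of positions, without gaps. The exon of 58 bp itself was 93.1% identical to that of MAF3 and 77.6% to that of FLC. MAF1 isoform 3 lacked exon 1 and so the MADS domain, and started in an exon of 81 bp that reached into intron 1. It kept intron 3 within an exon of 243 bp and encoded 141 residues. Its last exon, of 102 bp, ran past the end of exon 5, and exons 6 and 7 were absent. MAF1 isoform 5 had a further exon of 50 bp with its stop codon 17 bases before the last junction, and encoded 173 residues.

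MAF3 isoform 2 began exon 4 at a position 33 bases further on, which left 67 bases and 185 residues. The bases left out are in capitals below, in MAF3 and in 2 other members of the array.
MAF2 exon 4 (chr5:25985089-25985188, + strand): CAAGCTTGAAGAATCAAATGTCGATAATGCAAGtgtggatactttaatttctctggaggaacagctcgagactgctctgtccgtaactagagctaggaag
MAF3 exon 4 (chr5:25990084-25990183, + strand): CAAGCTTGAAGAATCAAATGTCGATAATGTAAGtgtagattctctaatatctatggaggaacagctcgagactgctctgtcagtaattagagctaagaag
MAF5 exon 4 (chr5:26001022-26001121, + strand): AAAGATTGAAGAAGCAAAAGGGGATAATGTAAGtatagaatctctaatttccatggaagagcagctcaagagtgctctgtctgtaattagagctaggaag
The capitals end in AG in each, the bases an intron usually ends with, and all 6 genes had AG at bases 32 and 33 of this exon. The shorter exon was annotated in MAF3 only in the deposited models, and the newer TAIR10.1 annotation had it in 1 isoform of MAF2 as well.

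MAF4 isoforms carried additional exons. Isoform 2 had an exon of 93 bp inside intron 2 and encoded 231 residues, and isoform 3 had an exon of 96 bp inside intron 1 and encoded 232.
MAF4 isoform 2 exon of 93 bp (chr5:25994606-25994698, + strand): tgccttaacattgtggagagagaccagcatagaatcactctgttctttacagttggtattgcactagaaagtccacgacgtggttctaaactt
MAF4 isoform 3 exon of 96 bp (chr5:25992898-25992993, + strand): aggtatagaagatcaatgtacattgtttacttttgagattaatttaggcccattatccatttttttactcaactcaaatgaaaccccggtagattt
The exon of 96 bp divided intron 1 of MAF4 into introns of 403 and 1439 bp. In MAF5, isoform 2 skipped the exon of 58 bp and lengthened exon 3 by 55 bp at its start to 117 bp, and encoded 197 residues.
MAF5 exon 3 extension (chr5:26000811-26000865, + strand): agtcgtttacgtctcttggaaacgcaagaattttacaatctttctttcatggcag
The coding sequence of MAF5 isoform 2 also started 21 bases downstream of that of isoform 1, at the position where those of the other 5 genes start.

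In total 11 exons were present in some isoforms of a gene and absent from others that spanned them. Overlapping exons were counted separately here, namely those of 58 and 81 bp in MAF1 and of 42 and 272 bp in MAF2. Of the 8 skipped coding exons with a preceding and a following exon, 5 had a length divisible by 3, and the exceptions were the exons of 58 and 46 bp in MAF1 and of 58 bp in MAF5. In all coding genes 491 of 878 such exons had a length divisible by 3 (55.9%), so 5 of 8 is near the background. Exon 6 in its 7-exon form was missing from the coding sequence of at least 1 isoform of FLC, MAF1 and MAF2, and exon 2 from that of at least 1 isoform of MAF1 and MAF5. Exon 6 was skipped in FLC isoform 4 and MAF2 isoform 1. MAF2 isoform 2 ran on from it, and MAF1 isoform 3 ended before it.

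MAF2, MAF3, MAF4 and MAF5 stood in this order on the + strand of chromosome 5 at chr5:25982254-26002465, with no annotated locus between them. MAF2 lay at chr5:25982254-25986326, MAF3 at chr5:25987429-25991315, MAF4 at chr5:25992243-25996174 and MAF5 at chr5:25997504-26002465. The array was 20212 bp long, and 83.4% of it lay inside the 4 genes. The gaps were 1102 bp between MAF2 and MAF3, 927 bp between MAF3 and MAF4 and 1329 bp between MAF4 and MAF5. The starts of successive genes were 5175, 4814 and 5261 bp apart, an even spacing. All 3 neighbouring pairs pointed the same way, as did 14269 of 27201 neighbouring pairs of coding genes (52.5%). The median gap of such pairs was 976 bp, so the gaps inside the array were of usual size. Between coding sequences the distances were 1412, 1244 and 1719 bp. Among the 33 other MADS-box genes only 2 neighbouring pairs occurred, AGL6 with SOC1 at 1015 bp and AGL72 with AGL71 at 1034 bp.

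**Figure D5:**
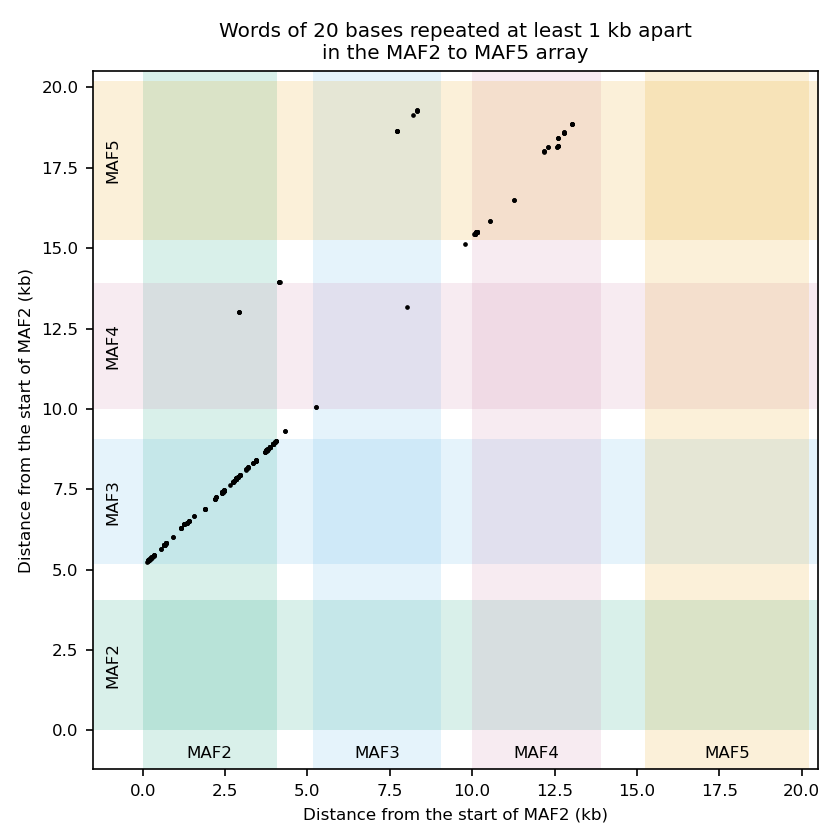
Each point marks a word of 20 bases that occurs at both positions (kb from the start of MAF2) at least 1 kb apart in the array; coloured bands are the 4 genes. MAF2 and MAF3 give a broken diagonal of 387 matches and MAF4 and MAF5 a sparser one of 65, and other pairs give 11 or fewer.

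Sequence was shared mainly between MAF2 and MAF3 and between MAF4 and MAF5. Words of 20 bases matched at 387 positions between MAF2 and MAF3, 233 of them in exons of both, and at 65 between MAF4 and MAF5, 42 of them in exons. MAF3 and MAF5 shared 11 matches, and MAF4 shared 3 with each of MAF2 and MAF3. The stretches between genes gave 7 matches with each other. In the plot of the array the matches between MAF2 and MAF3 run over the whole gene, introns included.

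The members outside the array stood alone. FLC, at chr5:3173497-3179448 on the − strand, was 22802805 bp from the array on the same chromosome, with AT5G10130 968 bp and AT5G10150 2534 bp away on the same strand. MAF1, at chr1:28955637-28960096 on the + strand, had AT1G77060 2127 bp and AT1G77090 290 bp away, both on the opposite strand. At the ends of the array, AT5G65040 lay 3836 bp before MAF2 on the opposite strand, and BST1 (AT5G65090) 1551 bp after MAF5 on the same strand. No exonic base of the 6 genes was shared with a neighbour in the deposited models.

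How far RNA reads can tell these genes apart was counted from their transcripts. Of the words of 25 bases in each gene's transcripts, 23.6% in MAF3, 17.9% in MAF2, 5.81% in MAF1, 3.19% in MAF4, 2.52% in MAF5 and 0 of 1104 in FLC occurred in transcripts of another locus. In MAF2, 15 such words occurred in 94 loci outside the clade, and 14 of these consisted of A and G only or of C and T only. With words of 50 bases the shares were 2.67% in MAF3, 1.09% in MAF2 and 0.969% in MAF1, and no word of FLC, MAF4 or MAF5 occurred elsewhere. These counts used the deposited models, which hold no antisense locus at FLC. In TAIR10.1 the antisense locus AT5G01675 shared 804 of the 1180 exonic bases of FLC (68.1%) on the opposite strand. The value of 0 for FLC therefore leaves this locus out. Transcript words were counted on both strands, whereas the libraries are strand-specific, so matches on opposite strands count here but differ in strand in the reads. The sources used here do not give the length of the reads.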

How the data were processed

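The labels describe strand-specific libraries of poly(A) RNA from 21 samples in 7 groups of 3. Trimmomatic 0.0.3, TopHat2 2.0.8 and the build TAIR10 were used per the submitters' processing notes. The deposited annotation analysed here has 590264 lines; its start and end columns hold positions in bp, and 0 columns belong to other samples. Samples were not compared, and depth is not analysed here.

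Exons, introns and isoforms were read with Python 3.11.15; the first listed isoform was used unless another is named. The 5 nuclear chromosomes had the same lengths in TAIR10.1, whose sequence gave an intact frame for 27165 of 27206 first isoforms. Proteins were translated and aligned globally with Biopython 1.88 (BLOSUM62, gap opening 11, extension 1). Words were counted on the gene's strand, and transcript words on both. An alternative exon was one that another isoform spans without overlapping it. Intron, skipped exon and word counting were tested on simulated data. Figures used matplotlib 3.10.9.

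No test of significance was run. The genes, lists and measures were chosen with earlier results of these data known. Named were the 6 genes, their neighbours, list genes with the longest first intron or most isoforms, and overlapping genes; VRN1, AG, ANR1, SHP2, AGL14, AGL6, SOC1, AGL71 and AGL72 were named after their values were seen. A comparison within the first introns is not reported here.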

Additional observations from a re-analysis of the deposited data

How the results depend on the processing

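No paired analysis was possible because no result comes from a comparison of samples. The newer TAIR10.1 annotation held 32 isoforms in place of 18. Counting exons that differ in either boundary gave 30 alternative exons in place of 11, which adds differing transcript ends by construction. With words of 16 bases the median number shared by first introns over the 15 pairs was 2 in place of 14, since longer words match less often. With the first intron inside the coding sequence, 4 of the 33 other MADS-box genes were at least as long as the lowest of the 6 genes, in place of 0. The other alternatives tried for transcript length, first introns, array gaps, protein identity and the introns of the MADS-box list kept their medians and counts within 1.5 times. The count of members with a first intron over 1000 bp was varied by length threshold only, not by isoform. The shortest first intron over isoforms was 210 bp in MAF1 and 403 bp in MAF4, so that count depends on the isoform used. The coding introns of the MADS-box genes, the first listed isoforms for protein identity and the TAIR10.1 first introns were chosen after seeing the data. All results depend on the annotated models, whose support by reads is not analysed here.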

Other observations

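The TAIR10.1 annotation, compared after the deposited models were described, had more isoforms in 5 of the genes and a different kind of model in several. MAF1 went from 4 to 11 isoforms, MAF2 from 3 to 5, MAF3 from 2 to 3, MAF4 from 3 to 6 and MAF5 from 2 to 3, while FLC stayed at 4. Most of the 33 other MADS-box genes also had more isoforms in TAIR10.1, and the rest kept their number. A gain was therefore not particular to the FLC clade, and its share among all coding genes was not counted. Isoforms with no coding base in exon 1, and so without most of the MADS domain, numbered 1 of 18 in the deposited models and 8 of 32 in TAIR10.1, with 5 in MAF1 and 1 each in MAF2, MAF4 and MAF5. Intron 1 was kept in the transcript in 4 MAF1 isoforms and 1 MAF2 isoform. The MAF1 isoform listed first in TAIR10.1 is one of these, so its first spliced intron had 210 bp in place of 2592 bp. Of the 32 coding sequences, 31 gave an intact frame, and the exception was the MAF5 isoform without coding bases in exon 1. Exon 6 was missing as annotated in the 7-exon form from the coding sequence of at least 1 isoform in all 6 genes in TAIR10.1, against 3 genes in the deposited models. Exons that run on from exon 6 and isoforms that end before it count as missing here, so this is not a count of skipping. The same count was not made in other genes.

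TAIR10.1 also placed long noncoding RNA loci near FLC and the array. The FLC antisense locus AT5G01675 (chr5:3173371-3179600, + strand), known as COOLAIR, had 6 transcripts. Of these, 4 ended 152 bp beyond the FLC start and 2 ended within the FLC gene. Exons of this locus covered 68.1% of the exonic bases of FLC in TAIR10.1. A noncoding locus, AT5G09295 (chr5:25980056-25981153, + strand), ended 1100 bp before MAF2. Reads of the libraries over these loci are not analysed here.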
